A study of Rattus norvegicus with 2 samples.

Results

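The pyruvate dehydrogenase complex turns pyruvate from glycolysis into acetyl-CoA inside the mitochondrion, and the citric acid cycle oxidises that acetyl-CoA to carbon dioxide while it hands electrons to the respiratory chain. Pyruvate dehydrogenase kinases phosphorylate the alpha subunit of the complex and switch it off. In liver the cycle also exports citrate for fatty acid synthesis and malate for glucose synthesis, and malate dehydrogenases stand on both sides of the inner membrane. Transcripts of 9 genes of this route were followed in the liver of rats on a low-fat and a high-fat diet: Pdha1, Pdhb, Pdk2, Cs, Idh3a, Suclg1, Fh, Mdh1 and Mdh2. The members were all probe sets whose only gene symbol in the platform annotation was one of these names. This gave 13 probe sets for 8 genes, of 15923 probe sets in the table and 10411 genes with a single symbol. Fh was matched to no probe set by this rule, so no expression value is given for it.

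The study had 2 samples of total RNA from liver, 1 for the low-fat and 1 for the high-fat diet, from rats labelled SD with an age of 4 weeks and 9 weeks of feeding. Both groups ate food based on AIN93G, a purified rodent diet, and fat is the difference that the labels name. The sources used here do not state what else the diets held, whether the rats were male or female, or how many animals each sample pooled. The comparison asks how the liver transcripts of this route stood on the high-fat against the low-fat diet. With 1 array per diet there is no replicate error and no test, and every value describes these 2 arrays only.

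Signals are the deposited linear intensities, and whether the authors scaled the arrays to each other is not given in the sources used here. They were compared between arrays for 1 probe set at a time, since signals of different probe sets are not comparable. Each array was given a floor at its median signal, which was 15.7 for low-fat and 14 for high-fat. A probe set counted as measured where its mean log2 signal reached the mean of both floors, which 7864 probe sets and all 13 member probe sets did. The log2 ratio, high-fat over low-fat, was shifted so that its median over measured probe sets was 0. Before the shift that median was -0.12, so a gene with equal signals on both arrays has a ratio of 0.12. Higher and lower below refer to the shifted ratio. For a yardstick, measured probe sets were cut into 10 equal bins of signal, and the robust SD of the ratio in a bin ran from 0.49 among the dimmest to 0.17 among the brightest. This is a spread across different transcripts, not an error between animals. Albumin and 6 other hepatocyte markers were all measured, with ratios from 0.03 to 0.27 and summed signals of 31831 (low-fat) and 32514 (high-fat). Of the Kupffer cell and macrophage markers 4 were measured, with a median ratio of 0.05 and summed signals of 890.7 and 778.9. The brightest of these, Clec4f, was lower (469.5 and 375, -0.21), and the other 3 were above 0. All 3 measured stellate cell markers were lower, with a median of -0.59 and summed signals of 355 and 251.8. Epcam was the cholangiocyte marker measured (-0.17), Kdr the endothelial one (-0.03), and Hbb and Alas2 of red cells were at 0.08 and 0.19. No lymphocyte, muscle or adipocyte marker was measured. The part of these differences in the results was not tested. In whole tissue, fewer cells of a type and less RNA per cell cannot be told apart. The 3′/5′ signal ratio, a check of RNA integrity, was 2.69 (low-fat) and 2.85 (high-fat) for the beta-actin control and 1.58 and 1.67 for the Gapdh control.

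Most of the member transcripts were lower on the high-fat array. Of 13 probe sets 11 were lower and 2 higher, while 50% of all measured probe sets were lower. Without the shift 12 of 13 were lower, against 66.2% of all measured probe sets. The median ratio of the members was -0.17, against 0 for all measured probe sets, and the values ran from -1.21 to 0.14. At least 1.2-fold lower were 5 of the 13, against 20.1% of all measured probe sets, and none was 1.2-fold higher, against 18.1%. These 5 were both probe sets of Mdh1, both of Pdk2 and the dimmest of Cs. Without the shift 7 were at least 1.2-fold lower, against 2435 of all 7864 measured probe sets. With a pseudocount of 50 there were 4, since that Cs ratio was then -0.09, and no share over all probe sets is given for that setting. A single one, of Mdh1, was past 2-fold, against 0.903% of all measured probe sets that were at least 2-fold lower and 0.776% that were at least 2-fold higher. By gene, Pdha1, Pdk2, Idh3a, Suclg1, Mdh1 and Mdh2 were lower on each of their probe sets, Pdhb was higher, and Cs was divided. Probe sets of 1 gene are not independent. Counting only the brightest of each gene, 2 of 8 genes were at least 1.2-fold lower, against 19.8% of all measured genes.

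**Figure D1:**
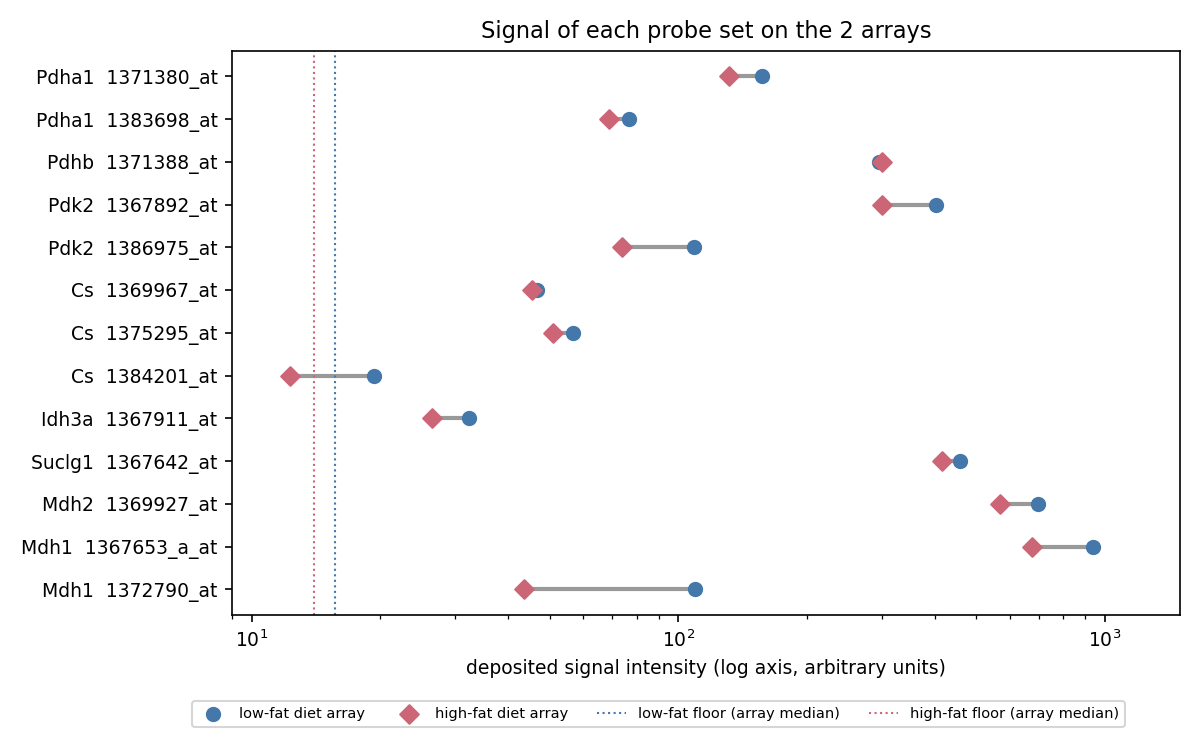
Deposited signal of each member probe set on the low-fat array (circles) and the high-fat array (diamonds), on a log axis in arbitrary units, with dotted lines at the 2 floors; each symbol is 1 array. The longest gap belongs to Mdh1 probe set 1372790_at (109.3 and 43.5), and the high-fat symbol of Cs probe set 1384201_at (12.3) lies below its floor of 14.

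Taking the brightest probe set of each gene, Mdh1 and Pdk2 were the lowest members and Pdhb the highest. They are represented by their upstream sequence, with Mdh2 as the mitochondrial counterpart of Mdh1. Each run is the 250 bases before the annotated start of the gene, read in the direction of transcription, from RefSeq on GRCr8. They lie at chr14:99847228-99847477 on the minus strand (Mdh1), chr12:26543842-26544091 on the minus strand (Mdh2), chr10:80483913-80484162 on the minus strand (Pdk2) and chr15:19182539-19182788 on the plus strand (Pdhb). Capitals mark matches to CACGTG (the E-box, a site of basic helix-loop-helix factors), CCAAT (the CCAAT box) and GGGCGG (the GC box), searched on both strands, so ATTGG is a CCAAT box on the other strand.
Mdh1: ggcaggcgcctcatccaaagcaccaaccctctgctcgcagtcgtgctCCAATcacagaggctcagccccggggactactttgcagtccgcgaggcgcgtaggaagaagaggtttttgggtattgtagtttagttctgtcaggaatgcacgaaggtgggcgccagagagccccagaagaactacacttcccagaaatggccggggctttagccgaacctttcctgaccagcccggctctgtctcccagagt
Mdh2: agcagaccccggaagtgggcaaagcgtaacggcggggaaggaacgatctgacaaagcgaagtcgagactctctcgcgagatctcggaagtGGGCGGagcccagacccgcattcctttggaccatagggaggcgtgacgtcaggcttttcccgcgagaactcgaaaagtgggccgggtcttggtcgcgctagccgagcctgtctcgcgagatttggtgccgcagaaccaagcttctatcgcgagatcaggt
Pdk2: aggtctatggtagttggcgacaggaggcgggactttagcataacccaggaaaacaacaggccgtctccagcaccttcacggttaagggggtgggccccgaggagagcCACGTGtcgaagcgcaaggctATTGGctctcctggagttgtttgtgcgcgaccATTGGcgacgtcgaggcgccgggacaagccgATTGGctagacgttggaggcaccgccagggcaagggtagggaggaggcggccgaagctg
Pdhb: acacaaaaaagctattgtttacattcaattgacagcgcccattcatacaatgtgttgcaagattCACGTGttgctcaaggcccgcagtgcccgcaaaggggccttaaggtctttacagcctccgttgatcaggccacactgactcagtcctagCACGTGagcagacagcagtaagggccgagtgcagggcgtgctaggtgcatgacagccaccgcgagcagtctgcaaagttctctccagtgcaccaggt

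In these windows the Pdhb sequence held 2 E-boxes and no other match, and that of Pdk2 held 1 E-box and 3 CCAAT boxes. Mdh1 had 1 CCAAT box and Mdh2 1 GC box, and no matches overlapped. Whether these matches bear on the ratios was not tested. Of the 9 genes 8 were matched in the RefSeq promoter table, with Idh3a unmatched. Over these 8, the E-box was found in 2 (Pdhb and Pdk2), the CCAAT box in 4 (Pdk2, Cs, Fh and Mdh1) and the GC box in 4 (Pdha1, Cs, Fh and Mdh2). Among 33469 windows of the same length over all genes, 5.59% held the E-box, 34.0% the CCAAT box and 30.5% the GC box. A search for TGCGCA, the core of the site of the respiratory gene factor NRF1, and for AAGGTCA, an extended nuclear receptor half-site, found neither in any of the 8 windows, while 6.14% and 3.99% of all windows held them. A match is a run of letters and does not show that a factor binds there.

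The subunits of pyruvate dehydrogenase itself differed little between the diets. Pdha1 encodes the alpha subunit, which carries the sites that the kinases phosphorylate. Its brighter probe set, 1371380_at, read 157.2 for low-fat and 131.7 for high-fat, a ratio of -0.14. The dimmer one, 1383698_at, read 76.7 and 68.8 (-0.04). Both Pdha1 probe sets were thus lower, by less than the robust SD of their signal bins, 0.22 each. Pdhb, encoding the beta subunit that forms the catalytic core with Pdha1, read 295.7 and 300.4. Its signals were nearly equal, and its ratio of 0.14 was 0.02 without the shift. The alpha and beta subunits therefore stood on opposite sides of 0, and neither ratio was as large as the spread of its bin.

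Pdk2, a kinase that inactivates the complex and is abundant in liver, was lower on both of its probe sets. Probe set 1367892_at read 403.2 in the low-fat and 300.8 in the high-fat sample, 1.24-fold lower, and 1386975_at read 108.8 and 74, 1.36-fold lower. Their ratios of -0.31 and -0.44 differed from each other by 0.13. They stood at 1.34 and 1.96 times the robust SD of their bins. Of 696 genes with at least 2 measured probe sets, 5.89% had both of the brightest 2 at least 1.2-fold lower. Both Pdk2 probe sets are annotated to the same cDNA entry, so they are repeat readings of 1 transcript in 1 RNA sample.

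Of the cycle enzymes among the members, Cs was divided over 3 probe sets. Cs encodes citrate synthase, which joins acetyl-CoA to oxaloacetate. Probe set 1369967_at read 46.7 and 45.5, a ratio of 0.08 that was -0.04 without the shift. The brightest, 1375295_at, read 56.6 and 51 (-0.03), and both of these were within 0.1 of 0. The dimmest, 1384201_at, read 19.4 for low-fat and 12.3 for high-fat, and the latter is below its floor. Set against that floor it was at least 1.28-fold lower, in the bin with the widest spread. The Cs signals on the brighter 2 probe sets therefore differed little, and the remaining one lay just above the level needed to count as measured.

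Idh3a encodes the catalytic subunit of the NAD-dependent isocitrate dehydrogenase. It read 32.3 for low-fat and 26.5 for high-fat, a ratio of -0.17 against a robust SD of 0.38 in its bin. Suclg1 encodes the alpha subunit of succinyl-CoA ligase, the step of the cycle that makes a nucleoside triphosphate directly. It read 458 and 414.8, a ratio of -0.03, which was 0.00061 with no floor. Neither ratio was as large as the spread of its bin, and the sign for Suclg1 rested on the choice of floor.

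**Figure D2:**
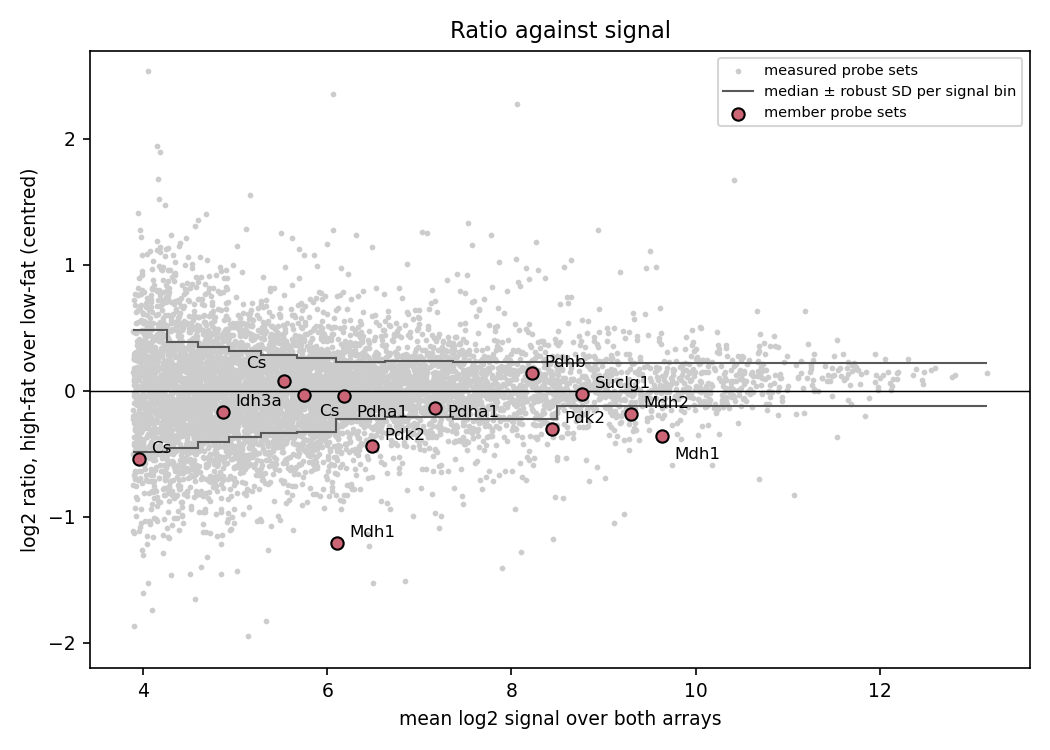
Centred log2 ratio (high-fat over low-fat) against mean log2 signal over both arrays for 7864 measured probe sets (grey), with the 13 member probe sets in red and stepped lines at the median ± robust SD of 10 signal bins. Both probe sets of Mdh1 (-0.36 and -1.21) and both of Pdk2 (-0.31 and -0.44) lie below the lower line. Mdh2 (-0.19) and the dimmest Cs probe set (-0.54) also lie below it, and the other members, such as Pdhb (0.14) and Suclg1 (-0.03), lie between the lines.

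Of the malate dehydrogenase genes, Mdh1 held the member probe set farthest from 0. Mdh1 encodes the cytosolic enzyme, which works in the malate-aspartate shuttle that carries reducing equivalents into mitochondria, and Mdh2 the mitochondrial enzyme that closes the cycle by making oxaloacetate. The brighter Mdh1 probe set, 1367653_a_at, read 939.3 in the low-fat and 674.9 in the high-fat sample, 1.28-fold lower with a ratio of -0.36. The dimmer one, 1372790_at, read 109.3 and 43.5, 2.32-fold lower with a ratio of -1.21. These stood at 2.11 and 5.40 times the robust SD of their bins. Both Mdh1 probe sets were lower, and they differed in size by 0.85 on the log2 scale. Over the 696 genes with at least 2 measured probe sets, the difference between the ratios of the brightest 2 had an SD of 0.42, and 4.89% of genes had a difference as large as that of Mdh1. The Mdh1 probe sets are annotated to different sequence entries, and the name of the brighter one, ending in _a_at, marks probes shared by several transcripts of the same gene. With a pseudocount of 50 on each signal, the ratio of the dimmer one was -0.71 and no member was past 2-fold.

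Mdh2 read 699.7 for low-fat and 567.4 for high-fat, a ratio of -0.19 on its single probe set. That is 1.09 times the robust SD of its bin. The cytosolic and the mitochondrial gene were both lower, and the Mdh1 ratios were the farther from 0. Whether these genes differ in their response could not be tested with 1 array per diet.

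**Figure D3:**
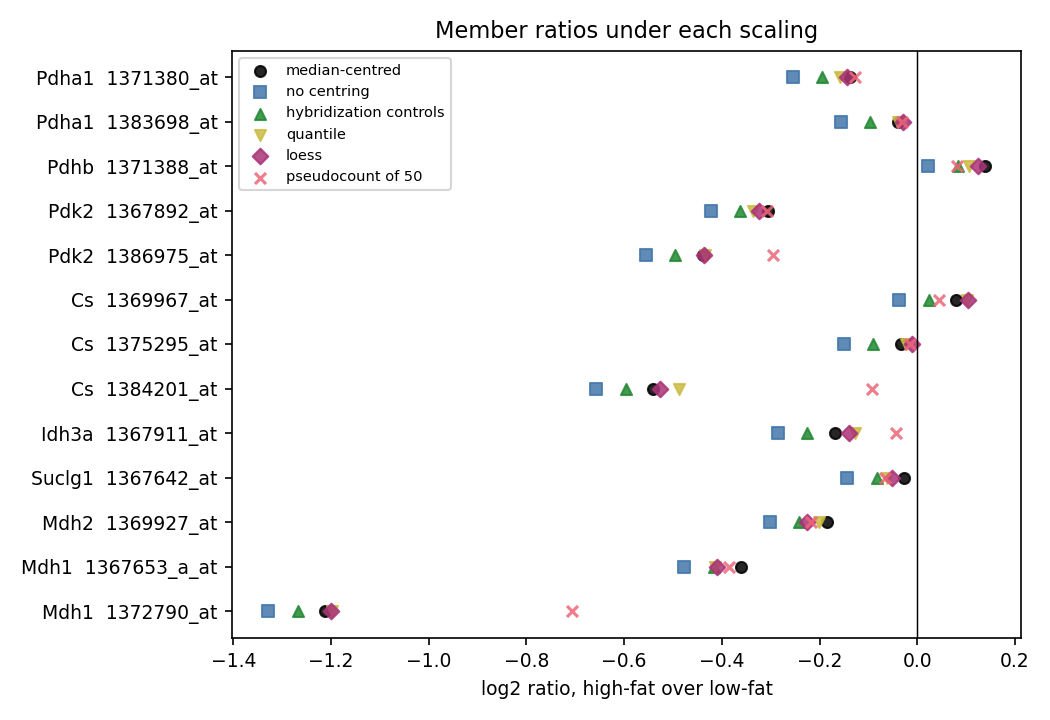
Log2 ratio (high-fat over low-fat) for each member probe set under the median shift, 4 other scalings and a pseudocount of 50, 1 symbol per setting. All settings put Mdh1 and Pdk2 below 0 and Pdhb above 0 (0.02 to 0.14), while Cs probe set 1369967_at crosses 0 without the shift (-0.04).

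The members were next placed among the other genes of the route, in a list of 46 genes that included them. Of these 38 were measured, taking the brightest probe set of each gene, and 26 were lower and 12 higher. Without the shift 33 were lower and 5 higher. Of all 6012 measured genes 50% were lower, and 66.6% without the shift. At least 1.2-fold lower were 10 of the 38, against 19.8% of all measured genes, and none was 1.2-fold higher, against 17.4%. Of the 38, 1 was at least 2-fold lower (Me1), against 0.865% of all measured genes, and with a pseudocount of 50 the Me1 ratio was -0.56. The median was -0.14, against 0 for all measured genes to 2 decimals. Among the 30 that are not members, 19 were lower and 11 higher, with a median of -0.13.

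In the complex, 1 of 4 measured genes was lower and 3 were higher, while 50% of all measured genes were lower. Without the shift 2 were lower, against 66.6%. None of the 4 was past 1.2-fold, against 19.8% of all measured genes lower and 17.4% higher. Beside Pdha1 and Pdhb the 4 held Dld, the dihydrolipoamide dehydrogenase subunit (113.3 and 115.8, 0.15, and 0.03 without the shift). They also held Pdhx, the component that anchors it (46.7 and 45, 0.06, and -0.05 without the shift). The testis form Pdha2 read 0.2 on both arrays and was not measured.

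Among the genes that regulate or feed the complex, 5 of 8 were lower, against 50% of all measured genes, and 8 of 8 without the shift, against 66.6%. At least 1.2-fold lower were 2 of the 8, Pdk1 and the member Pdk2, against 19.8% of all measured genes, and 1 of 7 without the member. The kinase gene Pdk1 read 113.8 and 81.2 on its brighter probe set (-0.37) and 32.2 and 31.7 on the dimmer one (0.09, and -0.02 without the shift), so its probe sets were divided where those of Pdk2 were not. Pdk4, the kinase known for its induction by fasting, read 35.8 and 32 (-0.05). Pdk3 was below the floor on both arrays. The phosphatase genes Pdp1 and Pdp2, whose products reactivate the complex, were at -0.16 (17.8 and 14.7) and 0.04 (43.4 and 41.1, -0.08 without the shift and also below 0 when centred on hybridization controls). Mpc1 and Mpc2, the mitochondrial pyruvate carrier, were at 0.03 and 0.02, and both were below 0 under the other 4 scalings. Pc, pyruvate carboxylase, which makes oxaloacetate from pyruvate, read 370.9 and 289.1 (-0.24).

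In the cycle proper 12 of 14 measured genes were lower, against 50% of all measured genes, and 13 without the shift, against 66.6%. Leaving out the members, 8 of 10 were lower. The median of the 14 was -0.15, and 2 of them were at least 1.2-fold lower, against 19.8% of all measured genes. These were Ogdh, a subunit of the 2-oxoglutarate dehydrogenase complex (124.9 and 85.7, -0.43), and Sdhb, the iron-sulfur subunit of succinate dehydrogenase (1046.3 and 760.7, -0.34). The other succinate dehydrogenase subunits were closer to 0, with Sdha at -0.12, Sdhd at -0.14 and -0.11 on its 2 probe sets, and Sdhc at 0.12. Sdhc read 515.2 and 517.9, and its ratio was 0.0075 without the shift. Idh3b and Idh3g, the partners of Idh3a, were at -0.16 and -0.19. The 3 subunits of this dehydrogenase lay within 0.03 of each other under the median shift. Idh3a is dim, with a robust SD of 0.38 in its bin, so this closeness carries little weight. With a pseudocount of 50 Idh3a, Idh3b and Idh3g were at -0.04, -0.18 and -0.15. Sucla2 was at -0.16 and Dlst, another subunit of the 2-oxoglutarate dehydrogenase complex, at -0.05. Suclg2, the beta partner of Suclg1, read 1008.1 and 942.5, a ratio of 0.02 that was below 0 under the other 4 scalings.

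**Figure D4:**
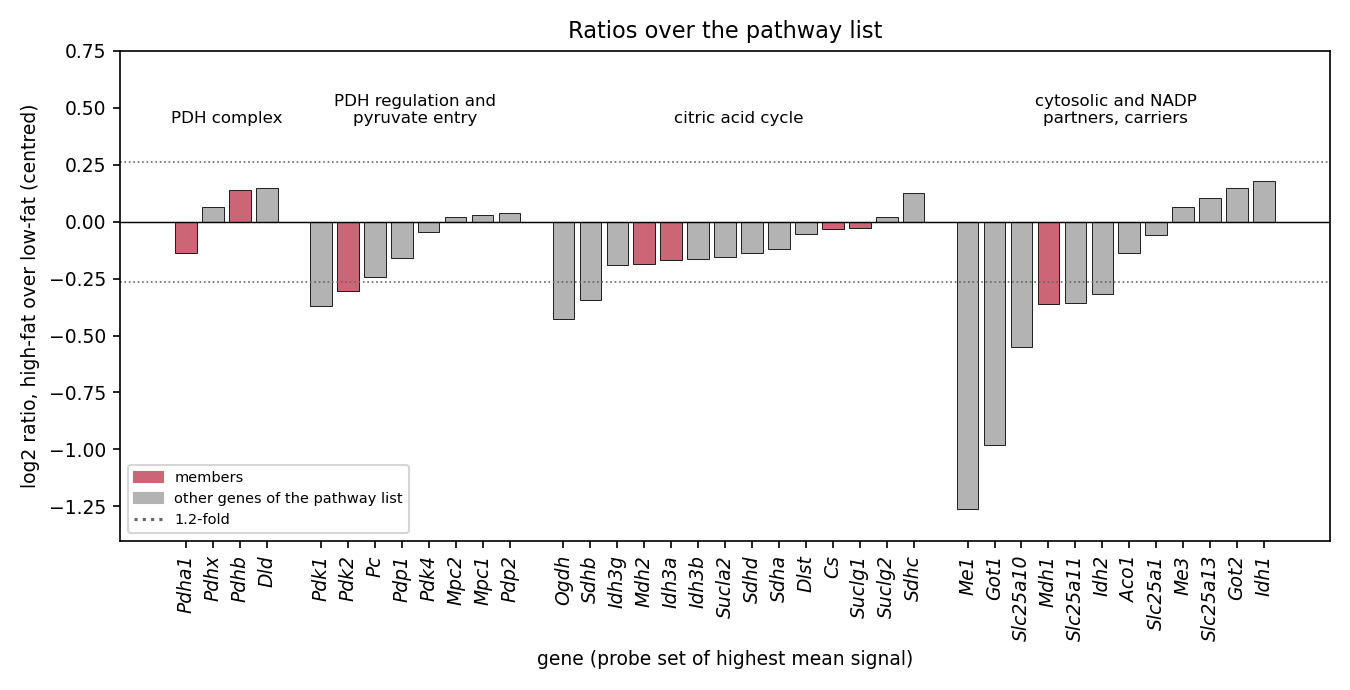
Centred log2 ratio (high-fat over low-fat) for the 38 measured genes of the route, 1 bar per gene from its brightest probe set, in 4 groups by role, with members in red and dotted lines at 1.2-fold. Bars below the lower line number 10 and none passes the upper line; Me1 (-1.26) and Got1 (-0.98) are the lowest.

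The cytosolic and NADP-dependent partners and the carriers held 6 of the 10 genes that were at least 1.2-fold lower, among them the member Mdh1. These 6 were out of 12 measured genes, against 19.8% of all measured genes. Of the 12, 8 were lower and 4 higher, with a median of -0.23, while 50% of all measured genes were lower. Without the shift 10 were lower, against 66.6%. Leaving out Mdh1, 5 of 11 were at least 1.2-fold lower and 7 were lower, with a median of -0.14. Me1, the cytosolic malic enzyme, was the lowest at 66.1 and 25.4 (-1.26), and its dimmer probe set was at least 1.46-fold lower. With a pseudocount of 50 these Me1 ratios were -0.56 and -0.13, and Got1 was then the lower gene at -0.95. Got1, the cytosolic aspartate aminotransferase, read 872.5 and 407.6 (-0.98). Slc25a10, the dicarboxylate carrier, read 454.4 and 286.1 (-0.55), and Slc25a11, the 2-oxoglutarate carrier, read 260.1 and 187 (-0.36). Idh2, the mitochondrial NADP-dependent isocitrate dehydrogenase, was at -0.32, and its cytosolic counterpart Idh1 was at 0.18. Without the shift Idh2 was at -0.43 and Idh1 at 0.06. Aco1, the cytosolic aconitase, was at -0.14, and Slc25a1, the citrate carrier, at -0.06. Me3 was at 0.07, and at -0.05 without the shift.

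Beside Mdh1 and Mdh2, the malate-aspartate shuttle uses Got1, Got2, Slc25a11 and the aspartate-glutamate carriers Slc25a12 and Slc25a13, a grouping made after the values were seen. The cytosolic enzymes Mdh1 and Got1 and the carrier Slc25a11 were each at least 1.2-fold lower. Of all measured genes 19.8% were at least 1.2-fold lower and 50% were lower. The mitochondrial aminotransferase gene Got2 read 1088.6 and 1111.6 (0.15, and 0.03 without the shift). Slc25a13 read 386.1 and 382.4 (0.10, and -0.01 without the shift). Slc25a12 was not measured. The shuttle genes were therefore divided, with Mdh1, Got1, Slc25a11 and Mdh2 lower and Got2 and Slc25a13 not lower under the median shift.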

How the data were processed

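Liver RNA was profiled on 2 arrays, 1 per diet, grouped by sample title. The deposited table holds 1 linear signal intensity per probe set and array, and how the authors went from scan to intensity is not given in the sources used here. No detection calls were used. Their number, 1 per diet, limits the precision.

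Of 15923 probe sets 57 were controls and left out, which leaves 15866. Of these, 12783 had 1 gene symbol, 312 had several and 2771 had none. Of the single symbols 12748 were found in the GRCr8 gene table and none changed. Log2 ratios used no pseudocount, so 4 of the 15866 with a 0 on an array have none. The steps were tested on simulated data.

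The members and gene lists were chosen with earlier results of these data known. Genes named are all probe sets of the members, the measured genes of the pathway list, counted by their brightest probe set, and the cell type markers. Dimmer probe sets of Pdk1, Sdhd and Me1 and the unmeasured Pdha2, Pdk3 and Slc25a12 are given beside these. Alternatives were no centring, centring on 18 hybridization controls, quantile normalization, loess (span 0.4), floors at the 25th and 75th percentile, no floor, a pseudocount of 50, gene values from the median of their probe sets, 1 probe set per gene, and leaving out probe sets named _s, _x, _a or _g. Computation used Python 3.11.15 with pandas 2.3.3, numpy 2.4.6 and, for loess, statsmodels 0.14.6.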

Additional observations from a re-analysis of the deposited data

How the results depend on the processing

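No paired analysis was possible because each diet has 1 array, and for the same reason no array could be left out. The count of member probe sets past 2-fold was 1, and 0 with a pseudocount of 50. With 1 probe set per gene, which leaves 8 values, 7 were lower, against 50% of all measured genes. Of these 8, 2 were past 1.2-fold, both lower, against 19.8% of all measured genes at least 1.2-fold lower. Past 2-fold were 0, against 0.865% of all measured genes at least 2-fold lower. The median of the members was below 0 under every alternative run, from -0.29 without centring to -0.09 with a pseudocount of 50. Of 101 single values of member probe sets under the alternatives, 100 moved by less than the robust SD of their signal bin. The exception was Mdh1 probe set 1372790_at with the pseudocount. Other centrings and floors shift all ratios by a common amount, smaller than 0.17, the smallest robust SD of a bin. Values under those settings could not have moved past it, so this count says little about them. Only quantile normalization, loess and the pseudocount could move single values separately. With the floor at the 75th percentile 10 member probe sets were measured. Depth in the sense of signal over background limits Idh3a and the dimmest Cs probe set most.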
